A study of Gossypium hirsutum with 63 samples.

Results

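The leaf transcriptomes of a high-heterosis and a medium-heterosis hybrid of upland cotton (Gossypium hirsutum) were compared. The H-hybrid, with the genotype label SJ48x98-15, is the cross of the maternal line A (SJ48) with the paternal line B (Z98-15). The M-hybrid, labelled SJ48x51-2, has the same mother A and the paternal line C (851-2). H and M denote the level of seed cotton yield heterosis the study gave these crosses, and their mother is shared, so the comparison asks which leaf transcripts differ between hybrids that differ in their father. The 6 libraries, 3 of H and 3 of M, were chosen by their labels from 63 libraries in all. The series covers 7 genotypes, which also include the low hybrid L (SJ48xT-8, mother A) and its father D (DT-8), in leaf, flower buds and ovule at 1 day post anthesis. Leaves were taken in the field at the squaring stage, when flower buds first form, and each sample pooled young leaves of different plants. The p-values given here measure the spread between such pooled samples, and no trait of single plants can be read from them.

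In an F1 hybrid each gene is present as a maternal and a paternal copy, and a transcript that only the father makes is usually found in the hybrid at a lower level than in the father. With a common mother, hybrids can therefore be compared with their fathers gene by gene. Cotton leaves are known for terpenoids, which terpene synthases make and which pigment glands store, and for large families of immune receptors that often differ between cultivars.

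Values were FPKM, the fragments of a gene scaled to its transcript length and to the size of the library. The FPKM of the 6 libraries summed to 425999 to 440074, and 59400 to 60449 of the 80325 listed genes were above 0. The number of reads behind each value cannot be read from the FPKM table, so the precision is given by the spread over libraries. Pairs of libraries correlated across genes at r = 0.926 to 0.935 within H, 0.919 to 0.933 within M and 0.916 to 0.934 between H and M, on log2(FPKM + 1). H and M were thus not separated as whole transcriptomes. The tissue label was checked with marker lists. The 252 photosystem and light-harvesting genes summed to 12852 to 15687 FPKM in H leaf and 11187 to 13965 FPKM in M leaf, against at most 1130 FPKM in H buds and 923 FPKM in M buds. Of these genes, 50 were at 0 in all 6 leaf libraries. The 195 genes of floral organ identity summed to 414 to 485 FPKM in H leaf and 416 to 431 FPKM in M leaf, against at least 1436 FPKM in H buds and 1487 FPKM in M buds. The 82 pollen and anther genes were less even, with 644 to 785 FPKM in H leaf and 439 to 978 FPKM in M leaf. In buds they summed to 458 to 2717 FPKM in H and 440 to 1052 FPKM in M. The 288 seed and ovule genes ranged over 424 to 1034 FPKM in H leaf and 434 to 1234 FPKM in M leaf. In ovule they summed to 550 to 731 FPKM in H and 460 to 755 FPKM in M. Neither of these lists thus set leaf apart from the other organ. The ranges of H and M overlapped in both of these lists, and their part in the results was not tested.

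The parental labels were checked before the hybrids were compared, with transcripts that the father had above 2 FPKM in all 3 leaf libraries and A had below 0.1 FPKM. Of the 50 such loci of B, 38 were above 0.5 FPKM in all 3 H libraries and 3 were below 0.1 FPKM in all. Of the 59 such loci of C, 30 were above 0.5 FPKM in all 3 M libraries and 13 were below 0.1 FPKM in all. For the low hybrid L and its father D, the values were 62 and 3 of 80 loci. The reverse class held loci below 0.1 FPKM in both parents and above 2 FPKM in every library of the hybrid. It had 3 loci in H, 14 in M and 7 in L. In buds and in ovule, M again lacked 16 of 57 and 16 of 51 loci of C, and had 14 and 20 loci absent from A and C. H lacked 4 of 42 and 6 of 54 loci of B there, and L lacked 1 of 47 and 2 of 65 loci of D. Loci absent from both parents numbered 2 in buds and 3 in ovule for H. For L they numbered 5 and 15, so that in ovule L was near M in this class. Of loci on in A and off in the father, in leaf H lacked 0 of 88, M 1 of 30 and L 3 of 49. In buds, H lacked 4 of 69, M 2 of 46 and L 12 of 55. In ovule, H lacked 6 of 76, M 28 of 137 and L 31 of 169. Lack of maternal transcripts was thus not particular to M. Over all 3 tissues, 9 loci were above 1 FPKM in all 9 M libraries and below 0.1 FPKM in all 18 libraries of A and C, and 4 loci had the converse pattern, on in C and off in A and M. For H with A and B, both counts were 0. Of the 9 loci on in M, MSTRG.10768 and MSTRG.33259 were also on in leaf of H, B, L and D. Their means there were 1.64, 1.95, 1.94 and 3.34 FPKM, and 3.45, 5.66, 3.34 and 9.16 FPKM. The others had means below 0.1 FPKM in H and B leaf. At the 9 and 4 loci, M thus carried transcripts found in neither labelled parent, or lacked those of its labelled father. This held in every tissue and in each M library, so that no M library could be left out to remove the pattern. What sets it was not tested, and whether line C as sampled is the father of the M plants sampled remains to be checked. Each value below that sets M against C, or against the mean of A and C, takes the labelled pedigree as given. The same holds for H with A and B. The class of loci absent from both parents counts only hybrid levels above 2 FPKM, and weaker levels of H above both of its parents are given below.

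At the thresholds of the study, an unadjusted p under 0.05 and a log2 difference beyond 1, limma called 551 of 60031 genes tested as differentially expressed genes (DEGs), or 0.918%. Of these, 216 were higher in H (0.36%) and 335 were lower (0.558%). The 3 H and 3 M libraries did not overlap at 128 of the 216 and at 228 of the 335. With the Benjamini-Hochberg adjusted p under 0.05 and the same log2 difference, 112 loci were called, 40 higher in H (0.0666%) and 72 lower (0.12%). At all 112 the libraries of H and M did not overlap, and 81 remained called when any 1 of the 6 libraries was left out. The counts without overlap come from the libraries that chose the loci, and selection by these tests favours such loci. The share without overlap over all genes tested is not given here, so these counts are a description. In a fit of the 6 libraries alone, 72 of the 112 were still called. Most were weakly expressed, with a median of 4.29 FPKM in H at the 40 loci higher in H, against 0.117 FPKM in M. At the 72 loci lower in H the medians were 0.495 FPKM in H and 5.20 FPKM in M. Only 33 of the 112 had a description (13 higher in H and 20 lower), and 22 and 42 had neither a gene name nor a description and are loci of the merged assembly. Below, "called" means the adjusted test, and differences are on the log2(FPKM + 1) scale, which understates the fold change of weak genes.

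**Figure D1:**
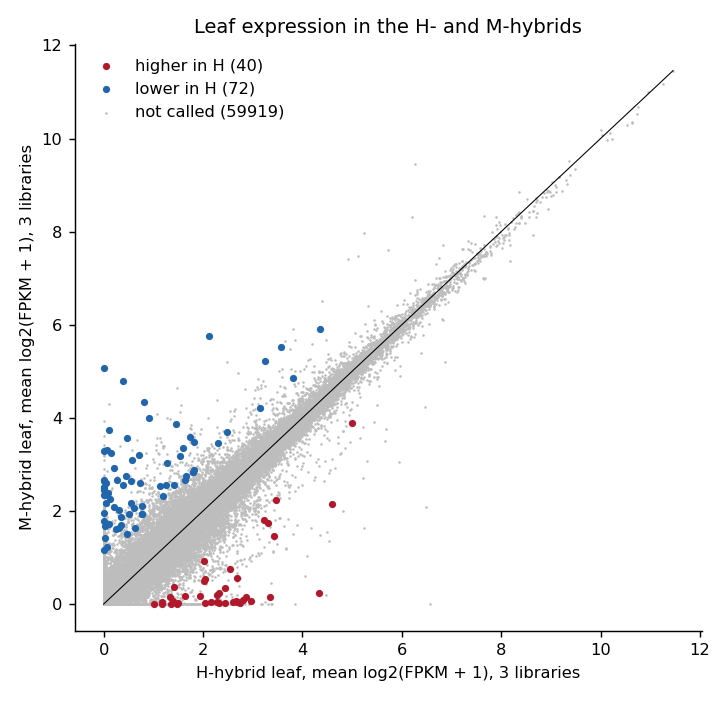
Mean log2(FPKM + 1) of 3 H-hybrid leaf libraries (horizontal axis) against 3 M-hybrid leaf libraries (vertical axis) for the 60031 genes tested, with the line of equality. The 40 loci called higher in H (red) and the 72 called lower (blue) lie below 6 on both axes, with medians of the group means of 4.29 FPKM in H and 0.117 FPKM in M for the red points and 0.495 FPKM in H and 5.20 FPKM in M for the blue points.

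Terpene synthases, which cyclise prenyl diphosphates into terpenes, were the gene list with the highest share of DEGs. Of 94 listed genes, 37 were tested and 7 were DEGs (18.9%, against 0.918% of all genes tested). Of these, 2 were higher in H and 3 lower at the adjusted p. The changes ran in opposite directions within the list, whose summed level was 258, 331 and 321 FPKM in the H libraries and 451, 420 and 431 FPKM in the M libraries. The median difference over the 37 genes was -0.27, against 0.00 over all genes tested.

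Gh_D11G3404, annotated as a terpenoid cyclase, had 16.9, 20.8 and 19.7 FPKM in H leaf and 0.149, 0.206 and 0.211 FPKM in M leaf. It was the largest rise among described genes, 101-fold between the means (log2 difference 4.08 ± 0.13 SE, adjusted p = 8.7e-12). Father B had 24.4, 27.0 and 27.2 FPKM and father C at most 0.341 FPKM, while mother A had at most 0.0897 FPKM. The gene was also on in L (17.7 to 23.3 FPKM) and D (39.8 to 59.1 FPKM). Transcripts were thus high in H, L and their fathers and near 0 in M and its parents. Its neighbour by number, Gh_D11G3403, is annotated as terpene synthase 21, which in Arabidopsis makes a sesquiterpene of the flower. It followed the same order at lower levels, with 2.13, 3.38 and 3.17 FPKM in H, 0.148, 0.101 and 0.163 FPKM in M, 4.72 to 5.43 FPKM in B and at most 0.0285 FPKM in C (log2 difference of H and M 1.76 ± 0.18, adjusted p = 2.9e-05).

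A second pair on the same chromosome changed the other way. Gh_D11G2904, also a terpene synthase 21, had 9.92, 12.5 and 10.3 FPKM in H and 45.5, 44.5 and 44.6 FPKM in M, a difference of -1.95 ± 0.19 (adjusted p = 1.6e-05). Gh_D11G2902 had 6.81, 10.1 and 8.90 FPKM in H and 36.6, 35.7 and 36.4 FPKM in M (-1.97 ± 0.18, adjusted p = 5.8e-06). The libraries of H and M were far apart at both genes. Father B had at most 0.0779 FPKM of either gene. Gh_D11G2904 averaged 12.7 ± 2.3 FPKM in C and 25.7 ± 9.0 FPKM in A (SD, n = 3), so that H was at 0.843 of the mean of its parents and M at 2.34 times the mean of its own. M was called above C at both genes (1.76 ± 0.19 and 1.83 ± 0.18, adjusted p = 3.4e-05 and 1.1e-05). These copies have like levels and lie 2 gene numbers apart, and whether they share reads was not tested. Gh_A09G0078, a terpene synthase of the 1,8-cineole type that was chosen after its values were seen, fell as well, with 0.400, 0.408 and 0.374 FPKM in H against 1.5, 2.05 and 1.99 FPKM in M (-1.02 ± 0.12, adjusted p = 9.6e-05).

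**Figure D2:**
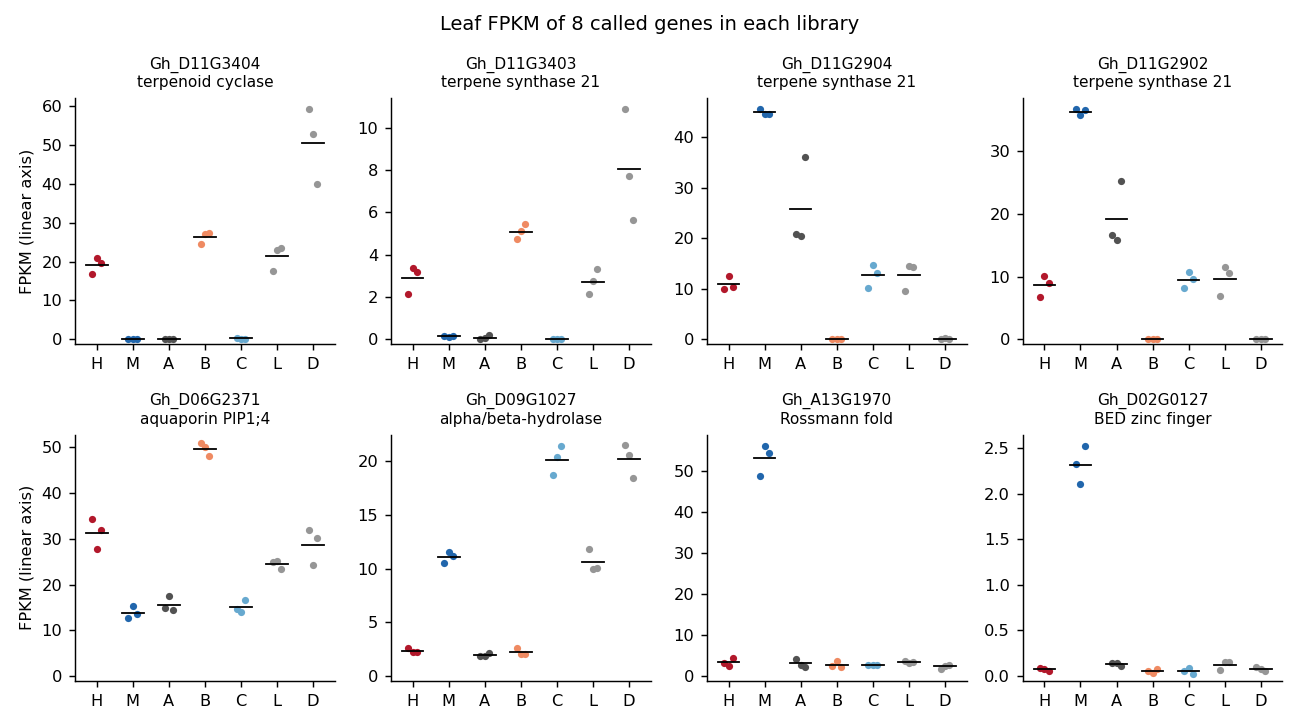
FPKM of 8 called genes in each leaf library of the hybrids H and M, the mother A, the fathers B and C, the low hybrid L and its father D, on linear axes, with a line at the mean of 3 libraries. Gh_D11G3404 averages 19.1 FPKM in H and 0.189 FPKM in M, while Gh_A13G1970 averages 3.40 FPKM in H and 53.1 FPKM in M and is low in every parent.

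The other described genes that rose in H followed father B in most cases. The aquaporin Gh_D06G2371, a plasma membrane water channel of the PIP1 class, was the most highly expressed of them. It had 34.3, 27.7 and 32.0 FPKM in H and 12.7, 15.4 and 13.6 FPKM in M (1.12 ± 0.11, adjusted p = 1.8e-05). B averaged 49.6 ± 1.4 FPKM, C 15.2 ± 1.4 FPKM and A 15.6 ± 1.6 FPKM, and H stood at 0.961 and M at 0.904 of the mean of their parents. The vesicle transport v-SNARE Gh_D12G1624;Gh_D12G1625, of a family that drives membrane fusion, had 6.74, 10.7 and 12.7 FPKM in H and 1.70, 1.93 and 1.62 FPKM in M (1.97 ± 0.25, adjusted p = 0.00042). It averaged 14.1 FPKM in B and 3.14 FPKM in C.

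Gh_A10G1959 encodes Kin17, a DNA- and RNA-binding nuclear protein, and had 3.52, 4.24 and 4.37 FPKM in H and 0.339, 0 and 0.244 FPKM in M (2.08 ± 0.21, adjusted p = 2.1e-05). Gh_D09G1256, the NF-YA10 subunit of the CCAAT-binding complex, had 9.92, 7.74 and 7.79 FPKM in H and 2.80, 2.32 and 2.40 FPKM in M (1.43 ± 0.21, adjusted p = 0.0021). The GATA transcription factor 11 (Gh_D08G2116, within the assembled locus MSTRG.31086) had 11.5, 8.96 and 6.63 FPKM in H and 2.16, 2.89 and 2.01 FPKM in M (1.56 ± 0.21, adjusted p = 0.0007). All of these libraries of H lay above those of M, and in the fathers the same order held: B averaged 8.12, 7.81 and 10.4 FPKM and C 0.279, 2.51 and 1.28 FPKM for Kin17, NF-YA10 and GATA. Gh_A03G1803, a glycine-rich protein 2B, averaged 3.23 ± 1.1 FPKM in H and 0.465 ± 0.17 FPKM in M (1.51 ± 0.22, adjusted p = 0.0022). Gh_D11G0790, the beta subunit of protein kinase CK2, averaged 1.74 ± 0.73 FPKM in H and 0.287 ± 0.13 FPKM in M (1.07 ± 0.17, adjusted p = 0.0063). Its difference was 0.86 without H replicate 2 and 0.98 without M replicate 2, under the threshold of 1. In the fit of the 6 libraries alone, GATA, the glycine-rich protein and CK2 were not called (adjusted p = 0.087, 0.118 and 0.305).

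Some rises came with near absence in M. Gh_D03G0742, an enzyme of the D-aminoacid aminotransferase-like family, had 1.86, 1.57 and 1.94 FPKM in H and 0, 0 and 0.021 FPKM in M (1.47 ± 0.15, adjusted p = 1.8e-05), and was listed at 0 in all C, L and D leaf libraries. Gh_D05G0882, a protein with the Josephin domain of deubiquitinating enzymes, had 1.54, 1.84 and 1.53 FPKM in H and 0, 0.125 and 0 FPKM in M (1.34 ± 0.20, adjusted p = 0.0022). Here the fathers did not differ by the test (B averaged 1.31 FPKM and C 1.65 FPKM, adjusted p = 0.63), and M was called below C (-1.34, adjusted p = 0.00093). Gh_D12G0134, of a family of metal-binding proteins, averaged 1.57 ± 0.52 FPKM in H and 0.116 ± 0.066 FPKM in M (1.19 ± 0.20, adjusted p = 0.010). It was not called without H replicate 1 (adjusted p = 0.074) or without M replicate 1 or 3 (0.056 and 0.054).

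Several of the described genes that fell in H had higher levels in father C than in father B, and 2 of them are given here. Gh_D09G1027, an alpha/beta-hydrolase, had 2.6, 2.22 and 2.20 FPKM in H and 10.5, 11.5 and 11.2 FPKM in M (-1.85 ± 0.10, adjusted p = 6.1e-09). B averaged 2.24 ± 0.35 FPKM, C 20.2 ± 1.4 FPKM and A 1.94 ± 0.16 FPKM, and the mean of A and C was 11.1 FPKM, the level of M. MSTRG.37750 holds NCED4, a carotenoid cleavage dioxygenase, and had 1.45, 1.08 and 1.09 FPKM in H and 3.80, 4.47 and 6.48 FPKM in M (-1.40 ± 0.15, adjusted p = 6.2e-05). C averaged 10.5 FPKM, whereas A and B averaged 0.12 and 0.0815 FPKM, so the level in H was 12 times the mean of its own parents. H was called above B at this locus (1.02 ± 0.15, adjusted p = 0.0028). It was not called between H and M in the fit of the 6 libraries alone (adjusted p = 0.097).

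An immune receptor transcript fell as well. Gh_D05G3548;Gh_D05G3555, an NB-ARC protein of the intracellular receptor class that senses pathogen effectors, had 0.0367, 0.167 and 0.264 FPKM in H and 3.62, 3.09 and 3.08 FPKM in M (-1.88 ± 0.11, adjusted p = 2.4e-08). C averaged 1.3 ± 0.28 FPKM, while A and B were at most 0.0236 FPKM. M was 2.51 times C, a difference of 0.90 ± 0.11 (adjusted p = 0.00022) that was below the threshold of 1. The adjoining Gh_D05G3549, with the CRM domain that binds introns in plant organelles, had 0, 0.220 and 0.555 FPKM in H and 2.82, 2.76 and 3.65 FPKM in M (-1.71 ± 0.20, adjusted p = 0.0002). It was listed at 0 in all leaf libraries of A and B, and its call was lost in the fit of the 6 libraries alone (adjusted p = 0.051). Gh_D05G3447, which the KEGG column places in plant-pathogen interaction and which has no description, had 0, 0.147 and 0.191 FPKM in H and 9.15, 8.53 and 7.92 FPKM in M (-3.10 ± 0.13, adjusted p = 3.3e-10). M was 75.7 times H and was called above C, which averaged 1.24 FPKM (2.10 ± 0.13, adjusted p = 4.9e-08).

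Other falls showed M above both of its labelled parents. Gh_A13G1970, an NAD(P)-binding Rossmann-fold protein, had 3.14, 2.57 and 4.50 FPKM in H and 48.8, 56.0 and 54.3 FPKM in M (-3.64 ± 0.18, adjusted p = 3.5e-09). A, B, C, L and D averaged 2.33 to 3.45 FPKM, and M was 18.2 times the mean of A and C. Gh_D09G1595, glutathione peroxidase 6, which reduces lipid hydroperoxides, had 2.41, 2.98 and 2.21 FPKM in H and 10.6, 9.84 and 10.1 FPKM in M (-1.67 ± 0.31, adjusted p = 0.025), and lost its call when any of the 6 libraries was left out (adjusted p = 0.057 to 0.12). Gh_D02G0127, with the BED zinc finger and the dimerisation domain of hAT transposases, had 0.0845, 0.081 and 0.0527 FPKM in H and 2.32, 2.11 and 2.52 FPKM in M (-1.63 ± 0.09, adjusted p = 6.1e-09). No leaf library of another genotype exceeded 0.158 FPKM. Gh_D06G0237, which has no description, had 0.130, 0.0628 and 0.0328 FPKM in H and 13.2, 13.2 and 10.7 FPKM in M (-3.63 ± 0.10, adjusted p = 1.2e-12), and every other genotype was at or below 0.124 FPKM.

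Lignin, cytochrome P450 and storage-type transcripts added single genes to the falls. Gh_D13G2116, the cytochrome P450 CYP71B14, had 0.231, 0.639 and 0.556 FPKM in H and 3.49, 3.51 and 3.58 FPKM in M (-1.63 ± 0.15, adjusted p = 6e-06), with C at 1.75 ± 0.58 FPKM, A at 0.625 ± 0.14 FPKM and B at 0.0564 ± 0.044 FPKM. Gh_D12G2369, O-methyltransferase 1 of the phenylpropanoid pathway, had 0.0671, 0 and 0.102 FPKM in H and 1.33, 1.66 and 1.09 FPKM in M (-1.15 ± 0.14, adjusted p = 0.00022). Outside M it was on in L and D (1.37 to 4.35 FPKM) and at most 0.159 FPKM in A, B and C. Gh_D01G1342, a lipid-transfer and 2S albumin family protein, averaged 0.193 ± 0.17 FPKM in H and 2.09 ± 0.55 FPKM in M (-1.37 ± 0.27, adjusted p = 0.038). It lost its call when any of the 6 libraries was left out (adjusted p = 0.066 to 0.208).

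The remaining described falls were less even among libraries. The ankyrin repeat gene Gh_Sca005280G01 had 18.8, 26.0 and 15.3 FPKM in H and 66.5, 58.2 and 54.3 FPKM in M (-1.56 ± 0.26, adjusted p = 0.010). It was not called without H replicate 1 or 3 or M replicate 1 (adjusted p = 0.054, 0.077 and 0.064). Both fathers were low at this gene, with means of 5.18 FPKM in B and 4.66 FPKM in C, and A ranged over 20.4 to 45.3 FPKM. Gh_A09G1153, an AN1-like zinc finger protein, had 0.110, 0.477 and 0.282 FPKM in H and 2.93, 2.13 and 2.96 FPKM in M (-1.51 ± 0.30, adjusted p = 0.040). H was at 0.137 of the mean of A and B, and the call was lost without any 1 library (adjusted p = 0.076 to 0.205). The largest fitted fall, the ribosomal L27e gene Gh_A07G0751, was listed at 0 in all H libraries and had 32.3, 30.2 and 35.7 FPKM in M (-5.07 ± 0.93, adjusted p = 0.021). This gene was at 0 in 51 of the 63 libraries and switched between replicates, with 23.6, 21.2 and 0 FPKM in L leaf and 0, 0 and 46.9 FPKM in H ovule. Its call was lost without any of the 6 libraries (adjusted p = 0.076 to 0.096).

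The fathers gave a comparison whose log2 difference uses none of the H and M libraries. Its test does use them, since the spread of each gene came from the fit over all leaf libraries. Loci with a small spread in that fit are more readily called in either comparison. No fit of B and C alone is given, so the shares below are not independent of the choice of loci. In leaf, B against C had 229 genes called higher in B (0.381%) and 936 called lower (1.56%). Of the 40 loci higher in H, 24 were called higher in B than in C and 2 lower. Of the 72 loci lower in H, 40 were called lower in B and 2 higher. Both shares, 60.0% and 55.6%, were above the percentages over all genes tested. The background depends on scaling. With TMM scaling (trimmed mean of M values), 287 genes were called higher in B and 765 lower of 59976 tested. The counts of loci called in the same direction stayed at 24 of 40 and 40 of 72. When 1 library of B or C was left out, the genes called in B against C numbered 679 without B replicate 2, 727 without B replicate 3 and 694 without C replicate 1, against 1165 with all 6 libraries. Over the 6 such fits, 23 to 25 of the 40 loci and 38 to 40 of the 72 loci were called in the same direction as between H and M. Against the common mother, H was called in 35 of the 40 loci higher in H and M in 1, and H was called in 8 of the 72 loci lower in H and M in 53. These counts share libraries with the comparison that chose the loci and describe only where the levels lie. The shares of all genes tested that were called against A are not given here.

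Parental presence split the loci into classes, of which the levels are given as sums of FPKM over the loci of a class. At the 24 loci with B above C, H libraries summed to 157, 155 and 153 FPKM and M libraries to 27.6, 30.4 and 27.1 FPKM, with 238 to 252 FPKM in B, 29.6 to 32.7 FPKM in C and 30.4 to 33.9 FPKM in A. H was within 2-fold of the mean of its parents at 23 of these 24 loci and M at 19. At 9 unnamed loci higher in H, B and C were above 1 FPKM in all 6 libraries and A was at most 0.1 FPKM. There, H libraries summed to 54.7, 52.8 and 35.0 FPKM and M libraries to 0.157, 0.800 and 0.239 FPKM, although C had 97.3 to 132 FPKM. M was below 0.5 of the mean of A and C at all 9 loci.

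Among the 72 loci lower in H, 9 were above 1 FPKM in A and C and at most 0.1 FPKM in B. H libraries summed to 32.1, 39.3 and 34.2 FPKM there and M libraries to 126, 124 and 128 FPKM, with at most 0.231 FPKM in B, 63.9 to 73.7 FPKM in C and 67.2 to 95.0 FPKM in A. All 9 were within 2-fold of the mean of A and B in H. A larger class of 20 loci was on in C and at most 0.5 FPKM in A and B. H libraries summed to 6.05, 10.8 and 13.0 FPKM and M libraries to 170, 151 and 139 FPKM, against 153 to 175 FPKM in C and at most 0.723 FPKM in A and 0.446 FPKM in B. H was thus above both of its parents in this sum in each library, by its mean at 19 of the 20 loci, and M was above C by its mean at 9. Since the class requires A and B to be low, a weak signal in H is enough to place it above both. L and D had means above 1 FPKM at 14 and 15 of these 20 loci. The levels in H were low, with a median of the means of 0.315 FPKM and a highest mean of 1.73 FPKM. The median was 0 FPKM in both A and B. A further 8 loci, 7 of them unnamed, were above 1 FPKM in all M libraries and at most 0.1 FPKM in H, A, B and C, with sums of 41.7, 33.8 and 32.1 FPKM in M and at most 0.0550 FPKM in any H library. In all, M was called above both A and C at 28 of the 72 loci. This count shares the M libraries with the choice of the loci, and the share over all genes tested is not given here.

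**Figure D3:**
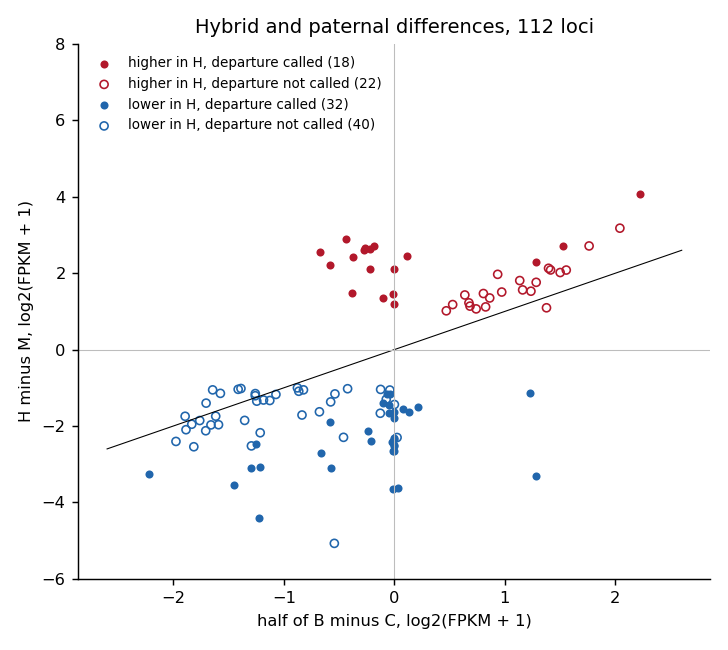
Log2 difference of H minus M (vertical axis) against B minus C divided by 2 (horizontal axis) for the 112 called loci, with the line of equality. Filled points depart from that line by the test (18 of 40 loci higher in H in red, 32 of 72 lower in H in blue), and several groups of them stand near 0 on the horizontal axis.

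If each hybrid lay midway between mother and father in log2 units, H minus M would equal B minus C divided by 2. Departure from this value was called at 104 genes (0.173% of those tested), and at 18 of the 40 loci higher in H and 32 of the 72 lower in H it ran further in the direction of the difference. Since the same H and M libraries chose these loci, their count is a description. For a transcript absent from a parent, the mean on the log scale lies below the mean in FPKM, so an additive level can also be called. The largest departures called included 2 loci that C carried and M lacked. MSTRG.19087 had 8.46, 8.0 and 4.61 FPKM in H and 0, 0.0787 and 0.0477 FPKM in M, with 14.8 to 28.5 FPKM in C and 8.95 to 11.1 FPKM in B (departure 3.34, adjusted p = 5.6e-06). MSTRG.49204 had 6.19, 5.88 and 3.50 FPKM in H and 0, 0.0545 and 0.021 FPKM in M, with 8.69 to 15.8 FPKM in C (3.23, adjusted p = 6.2e-06). The others were Gh_D06G0237 (-3.66) and Gh_A13G1970 (-3.62), described above, and MSTRG.33383 (-4.58, adjusted p = 0.0026). MSTRG.33383 was listed at 0 in all H libraries and had 9.75, 10.4 and 6.74 FPKM in M, but it also switched between replicates elsewhere, with 4.69, 0 and 0 FPKM in C. Its difference between H and M was not called without H replicate 1, 2 or 3 or M replicate 1 or 2 (adjusted p = 0.062 to 0.081).

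Flower buds and ovules of the same hybrids gave libraries that the leaf comparison did not use. In buds, 45 genes were called higher in H than in M (0.0705%) and 74 lower (0.116%). In ovule, 65 were higher (0.109%) and 133 lower (0.224%). Of the loci higher in H leaf, 25 of 38 tested in buds and 25 of 36 tested in ovule were called higher in H there. Of the loci lower in H leaf, 43 of 70 and 36 of 64 were called lower. None was called in the opposite direction in either tissue, and 22 and 30 loci were called the same way in all 3 tissues. Gh_D02G0127 had 0.0327 to 0.0985 FPKM in H buds and 2.18 to 2.79 FPKM in M buds, and 0 to 0.025 FPKM in H ovule and 1.59 to 1.91 FPKM in M ovule. Kin17 (Gh_A10G1959) had 5.55 to 6.64 FPKM in H ovule and was listed at 0 in M ovule. The aquaporin Gh_D06G2371 had 10.2 to 11.3 FPKM in H ovule and 2.98 to 3.69 FPKM in M ovule (1.42 ± 0.26, adjusted p = 0.012), and in buds its difference of 1.35 had an adjusted p of 0.086.

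**Figure D4:**
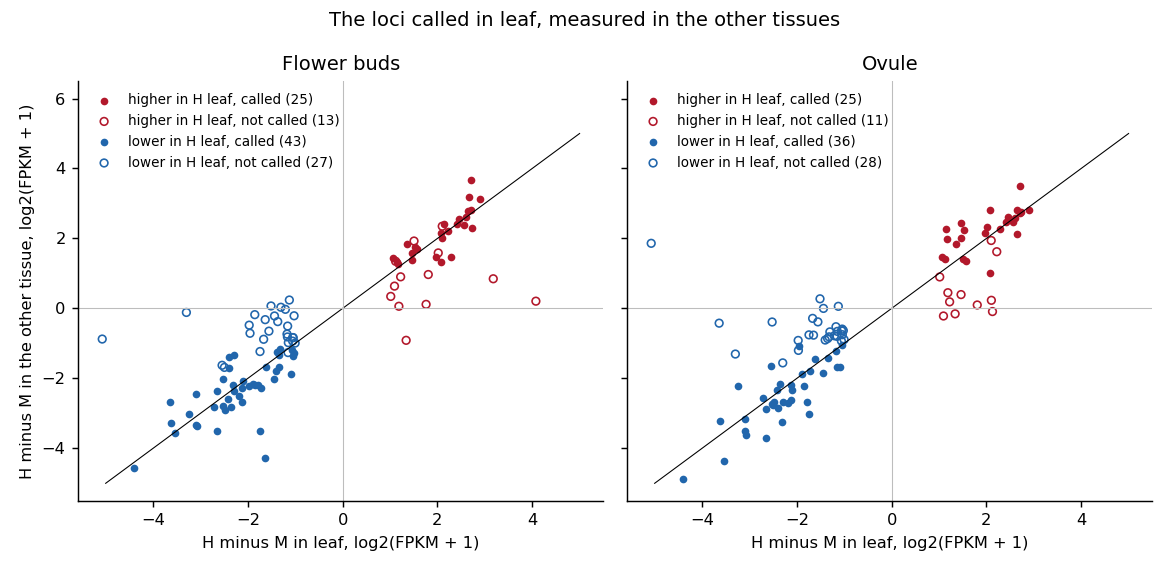
Log2 difference of H minus M in flower buds (left) and ovule (right) against that in leaf for the loci called in leaf and tested in the other tissue, with the line of equality. Filled points were called there: 25 higher and 43 lower in H buds, 25 higher and 36 lower in H ovule, and none in the opposite direction.

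Leaf-specific differences were tested as an interaction over all 63 libraries. Of 68947 genes tested, it called 21 for leaf against buds and 59 for leaf against ovule. Against buds, it was called at 5 of the 40 loci higher in H leaf and 5 of the 72 lower. Against ovule, these counts were 10 of 40 and 10 of 72. The loci were chosen in the same leaf libraries, so these counts are a description. Among the named genes, the terpenoid cyclase Gh_D11G3404 had at most 0.215 FPKM in H buds and 0.0181 FPKM in M buds and was listed at 0 in the ovules of both, and its leaf difference exceeded that in buds by 3.87 ± 0.22 and that in ovule by 4.08 ± 0.22. NF-YA10 (Gh_D09G1256) was likewise at most 0.237 FPKM in H buds and was listed at 0 in M buds and in H ovule. The hydrolase Gh_D09G1027 had 0.378 to 0.539 FPKM in H buds and 0.402 to 0.793 FPKM in M buds, which overlapped, and its leaf fall exceeded that in buds by 1.67. The Rossmann-fold gene Gh_A13G1970 kept its direction at lower levels in buds, with 0.111 to 0.582 FPKM in H and 5.19 to 9.15 FPKM in M (-2.69, adjusted p = 7.4e-08).

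Most gene classes of leaf physiology had a share of DEGs near or below that of all genes. Of the 186 tested photosystem and light-harvesting genes, 1 was a DEG, higher in H, with a median difference of 0.08. None of the 66 genes of chlorophyll synthesis and the Calvin cycle was a DEG (median 0.09), and their sums overlapped, at 11191 to 13842 FPKM in H and 9100 to 12295 FPKM in M. Starch and sucrose metabolism by KEGG had 3 DEGs higher and 7 lower in H of 1232 tested (0.812%). Plant hormone signal transduction had 5 higher and 9 lower of 1756 (0.797%), of which Gh_D02G0127 alone was called at the adjusted p. Neither the 83 ethylene, 68 gibberellin and 34 cytokinin genes nor the 29 clock genes held any DEG, while auxin response had 2 lower of 285 and the jasmonate list 1 lower of 68. Brassinosteroid genes had 1 higher and 1 lower of 50.

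Defence classes were mixed. Pathogenesis-related and defence proteins had 4 DEGs higher and 2 lower in H of 125 (4.80%), none of them called at the adjusted p, and the median difference was 0.00. Plant-pathogen interaction by KEGG had 6 lower and none higher of 1815 (0.331%), 2 of them called. NB-ARC and TIR receptors had 2 higher and 1 lower of 219, and receptor-like kinases 2 higher and 3 lower of 629. Cytochromes P450 had 3 higher and 3 lower of 285 (2.11%). The transcription factor lists held few DEGs: 1 lower of 293 MYB, 1 lower of 168 WRKY, 1 higher and 1 lower of 224 bHLH, and none of 190 NAC or 219 AP2/ERF genes. No DEG was found among 117 expansin and xyloglucan genes, 93 cellulose synthases, 174 UDP-glucosyl transferases or 48 flavonoid enzymes. Ribosomal proteins had 1 higher and 4 lower of 959, and 1 of 436 cell division genes was lower. The lists were described by these counts alone, beside the 0.918% of all genes tested.

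**Figure D5:**
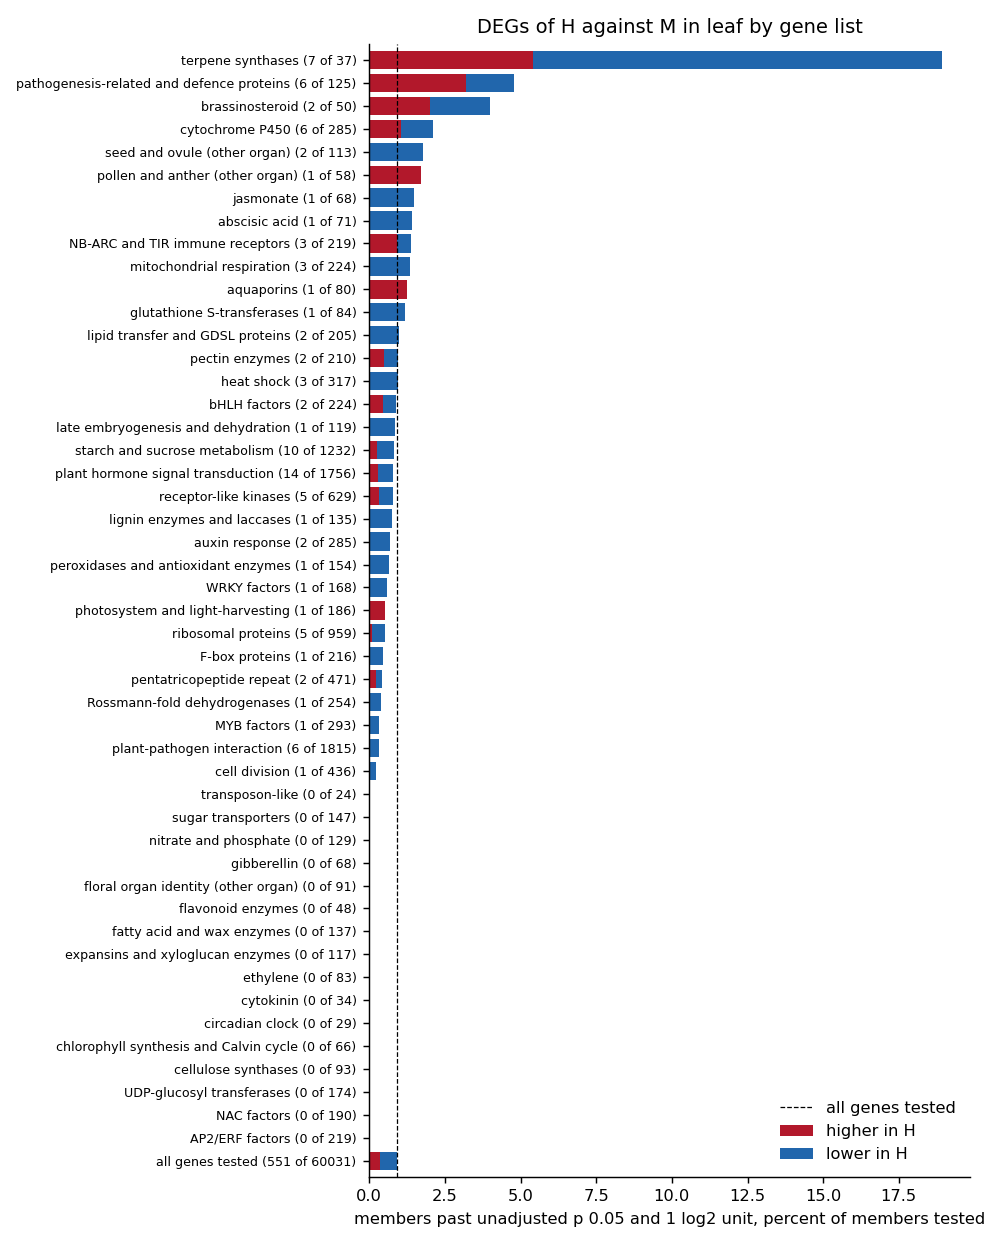
Share of tested members of each gene list that were DEGs of H against M in leaf, higher in H (red) and lower in H (blue), with the count of members beside each name and the share over all genes tested, 0.918%, as a dashed line. Terpene synthases reach 18.9% and pathogenesis-related proteins 4.80%, and 16 lists have none.

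The study chose its 9 yield candidate genes from differences between H or L and their parents in flower buds or ovule. It also used known yield QTLs and a co-expression network. A comparison of H with M in leaf is a different contrast and tissue, and does not test that choice. None of the 9 was called between H and M leaf at the adjusted p, and 1 of them, Gh_A03G1024, was a DEG at the thresholds of the study. Gh_A12G2183, which the study names granule-bound starch synthase 1 (GBSS1), was listed at 0 in all 6 libraries and was not tested. The MAP kinase 4 gene Gh_D08G1467 had 5.75, 5.30 and 6.38 FPKM in H and 6.81, 6.48 and 5.94 FPKM in M, which overlapped (-0.12 ± 0.12). The starch synthesis subunit Gh_D07G1312 averaged 1.34 ± 0.16 FPKM in H and 1.14 ± 0.054 FPKM in M (0.13 ± 0.20). Gh_A08G2199, a JAZ repressor of jasmonate signalling, had 0.757, 0.489 and 0.542 FPKM in H and 0.893, 0.874 and 0.892 FPKM in M (-0.24 ± 0.18), without overlap but far from the threshold. The shaggy-like kinase Gh_D08G1440 was below 0.31 FPKM in all 6 libraries (-0.15 ± 0.19), and the phosphate transporter-like EXS gene Gh_A03G0889 differed by 0.05 ± 0.16. The BZR1-type brassinosteroid regulator Gh_A03G1024 had 2.09, 0.699 and 0.146 FPKM in H and 13.4, 12.1 and 1.37 FPKM in M. The libraries overlapped, and the difference of -2.07 ± 0.78 had an unadjusted limma p of 0.0176 and an adjusted p of 0.77. The glycosyl hydrolase Gh_A08G2210 and the PPR gene Gh_D05G0202 were listed at 0 in all H libraries and had a value above 0.1 FPKM in 1 M library each, 1.06 and 2.71 FPKM.

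Gene names placed 48 of the 112 loci, 44 on a numbered chromosome and 4 on scaffolds. The D subgenome held 33 and the A subgenome 11, whereas the genes tested that carry such names numbered 23220 and 22422. D11 had 7 of them, D05, D06 and D12 had 5 each, and D09 had 3. Within 10 gene numbers of each other lay 4 pairs: the terpene synthases Gh_D11G2902 and Gh_D11G2904, the pair Gh_D11G3403 and Gh_D11G3404, the receptor Gh_D05G3548;Gh_D05G3555 with Gh_D05G3549, and Gh_D06G2309 with Gh_D06G2310. Each pair changed in a single direction. The last pair was chosen after its values were seen. Gh_D06G2309, described as CW7, averaged 0.540 FPKM in H and 3.18 FPKM in M (-1.44, adjusted p = 7.5e-07), and Gh_D06G2310 averaged 0.0121 FPKM in H and 4.46 FPKM in M (-2.43, adjusted p = 3.8e-11). Gh_D06G2310 was above 1 FPKM in all 9 M libraries and below 0.1 FPKM in the 18 libraries of A and C.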

How the data were processed

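RNA-seq libraries of 7 genotypes, 3 per group, came from leaf, flower buds and ovule. The authors trimmed reads with Cutadapt, aligned them with HISAT, assembled and merged transcripts with StringTie and deposited FPKM values from Ballgown. The reference was a G. hirsutum genome (build not given in the sources used here), counts of reads per gene were not used, and 21 FPKM columns of no sample were not used. In leaf, 60031 of 80325 genes above 0.5 FPKM in any library were tested. Values were log2(FPKM + 1) and were fitted with limma 3.58.1 (R 4.3.3; trend and robust variance) over the 21 leaf libraries, with Benjamini-Hochberg adjustment. The study's thresholds were an unadjusted p of 0.05 and a log2 change of 1. Buds (63805 genes) and ovule (59372) were fitted alike, and tissue interactions over 63 libraries (68947 genes). Named genes were up to 12 described rises and falls by size among called genes, up to 3 called members of each list, 5 departures and 9 candidates. The 48 gene lists matched descriptions or KEGG terms. Members and lists were chosen with earlier results of these data known. The fits were tested on simulated data. No sequences are printed. Alternatives were pseudocount 0.1, other filters, TMM scaling, variance settings, a replicate block and left-out libraries.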

Additional observations from a re-analysis of the deposited data

Results flagged for a closer look

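Tests of the tissue interaction found that the difference between H and M in leaf differed from that in another tissue at 8 named genes, with limma over 63 libraries and Benjamini-Hochberg adjusted p. These genes were named for their difference between H and M in leaf, and the same leaf libraries enter the interaction. The p-values are therefore no further test of the leaf difference, and the choice favours large interactions. For the terpenoid cyclase Gh_D11G3404 the leaf difference exceeded that in buds by 3.87 ± 0.22 (adjusted p = 5.6e-17) and that in ovule by 4.08 ± 0.22 (2.2e-17), and for its neighbour Gh_D11G3403 by 1.65 ± 0.18 (4.8e-08) and 1.76 ± 0.18 (4.9e-09). Gh_D11G3404 was listed at 0 in all ovule libraries of H and M, so its ovule value equals its leaf difference. The NF-YA10 gene Gh_D09G1256 had leaf differences larger by 1.18 ± 0.20 than in buds (0.0013) and by 1.49 ± 0.20 than in ovule (7.2e-06).

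Among genes lower in H leaf, the terpene synthase Gh_D11G2902 had an interaction of -1.49 ± 0.27 with buds (0.0042), and the Rossmann-fold gene Gh_A13G1970 one of -3.22 ± 0.22 with ovule (3.0e-14). The hydrolase Gh_D09G1027 had -1.67 ± 0.17 with buds (2.4e-08) and -1.81 ± 0.17 with ovule (2.0e-09). For the cytochrome P450 Gh_D13G2116 the values were -1.59 ± 0.13 with buds (8.3e-12) and -1.63 ± 0.13 with ovule (3.3e-12), and for the O-methyltransferase Gh_D12G2369 they were -1.26 ± 0.14 (5.5e-08) and -1.11 ± 0.14 (1.3e-06).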

How the results depend on the processing

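With a pseudocount of 0.1 in place of 1, the counts at the study's thresholds became 1454 genes for H against M in leaf (551 with 1), 1316 in buds (525), 1611 in ovule (696), 4061 for B against C (1794) and 1825 for the departure from the paternal difference (670). With a pseudocount of 1 and the adjusted p, these counts were 112, 119, 198, 1165 and 104. The replicate block gave 562 genes in leaf, 904 in buds and 699 in ovule, and with the adjusted p, a combination chosen after seeing the data, 107, 122 and 211. The deviations of libraries with the same number correlated at -0.04 to -0.02 in leaf, 0.03 to 0.10 in buds and 0.01 to 0.04 in ovule, so the numbers were not taken as pairs. Leaving out 1 library, also chosen after seeing the data for the adjusted p, gave 107 to 122 called genes in leaf, and 679 to 1316 for B against C. Of the 112 loci, 99 were called with the pseudocount of 0.1, 72 in a fit of the 6 libraries alone, 107 with the replicate block and 91 to 95 without 1 library, and none changed sign in these fits. TMM scaling kept 111 of them. The reads behind each FPKM value were not used here, and differences of genes near 0 FPKM depend on the pseudocount. The cause of these shifts was not tested.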
